A study of Mus musculus with 8 samples.

Results

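The genes described here encode the subunits of oxidative phosphorylation, the chain of enzyme complexes in the inner mitochondrial membrane that turns nutrients and oxygen into ATP. Members were chosen by gene symbol alone: every gene whose symbol begins with Nduf followed by a, b, c, s or v, with Uqcr, with Cox and a subunit number, or with Atp5, the 4 *Sdh* subunit genes, and the protein-coding genes of mitochondrial DNA. Pseudogenes and assembly factors were left out, which gave 99 genes of the 30406 listed for both replicates. Of these, 86 lie in the nuclear genome (38 for complex I, 4 for complex II, 8 for complex III, 18 for complex IV and 18 for complex V) and 13 in mitochondrial DNA (7 for complex I, 1 for complex III, 3 for complex IV and 2 for complex V). Islets of male C57BL/6 mice (C57BL6/J in the study's methods) were left untreated or cultured for 18 h with IL-1β and IFN-γ (cytokines), with the same cytokines and NMMA, an inhibitor of nitric oxide synthase, or with NMMA alone. The 4 groups were sampled in 2 experimental replicates, so 8 droplet-based single-cell RNA libraries were available, and no allele or transgene set the groups apart. Per the study's methods, islets of several mice were pooled for each replicate before they were divided over the conditions, so p-values measure the spread between 2 such pools.

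Complex I takes electrons from NADH and complex II takes them from succinate. Complex III hands them through cytochrome c to complex IV, which reduces oxygen, and complex V uses the resulting proton gradient to make ATP. In the β-cell, ATP made this way closes potassium channels and couples glucose to insulin release. When cytokines are present, β-cells express the inducible nitric oxide synthase, and nitric oxide is known to bind and inhibit complex IV and to damage iron-sulfur centres. All complexes but complex II combine subunits of both genomes. Mitochondrial genes are transcribed as long precursors that are then cut into individual mRNAs, whereas each nuclear subunit has its own promoter.

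Libraries held between 26549922 and 50731370 unique molecular identifiers (UMIs), each of which stands for 1 captured RNA molecule, and pairs of libraries shared 0 to 5 cell barcodes. Of 17426 barcodes, 10876 passed limits on detected genes and on mitochondrial RNA. The limit of 10% mitochondrial UMIs removed 13.4 to 44.0% of the barcodes that met the gene limits in a library, which truncates every mitochondrial level below. Clusters named from marker genes gave 6252 β-cells, 627 α-cells, 324 δ-cells, 324 macrophages and 213 endothelial cells, while 2654 barcodes stayed unnamed. In β-cells 11 of 12 β-cell markers had UMIs, with a summed level of 386601 to 485847 CPM across libraries, and the 10 α-cell markers summed to 605 to 4605 CPM. UMIs were summed over the cells of a type in each library. Levels are given as normalized CPM (UMI counts relative to all UMIs of that cell type and library, scaled by the trimmed mean of M values) in replicates 1 and 2, in that order, and genes were called at an adjusted p under 0.05 in edgeR's quasi-likelihood test over all genes tested.

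To determine how the members responded in β-cells, cytokine-treated and untreated cells were compared. Nuclear and mitochondrial members moved in different directions. Of 81 nuclear members tested, 19 were higher with cytokines and 2 were lower, with a median log2 change of 0.30 against 0.00 over all 12765 genes. Of the 13 mitochondrial members, 1 was higher and 7 were lower, with a median of -0.85. The shares called over all genes were 23.6% higher and 22.3% lower, so in this fit the share of nuclear members that rose was close to that of all genes and the share that fell was below it. The 5 members with too few UMIs to be tested in β-cells were *Cox4i2*, *Cox6b2*, *Cox7b2*, *Cox8b* and *Cox8c*. With the replicate number as a block, which pairs samples from 1 pool, 50 nuclear members were higher and 5 lower. In that fit 1 mitochondrial member was higher and 9 lower, against 32.2% of all genes higher and 30.6% lower, and all 29 calls were kept. The share of nuclear members that rose was then above that of all genes, so this reading depends on whether the pairing is used. Scaling by total UMIs moved the median of all genes to -0.21 and gave 6 nuclear members higher, 6 nuclear lower and 8 mitochondrial lower, with the nuclear median still 0.29 above that of all genes. Insulin took 42.3% and 40.2% of β-cell UMIs in untreated libraries and 34.3% and 37.2% with cytokines. With both insulin genes left out, 22 nuclear members were higher and 2 lower. Leaving out the untreated library of replicate 1 gave 11 members called.

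**Figure D1:**
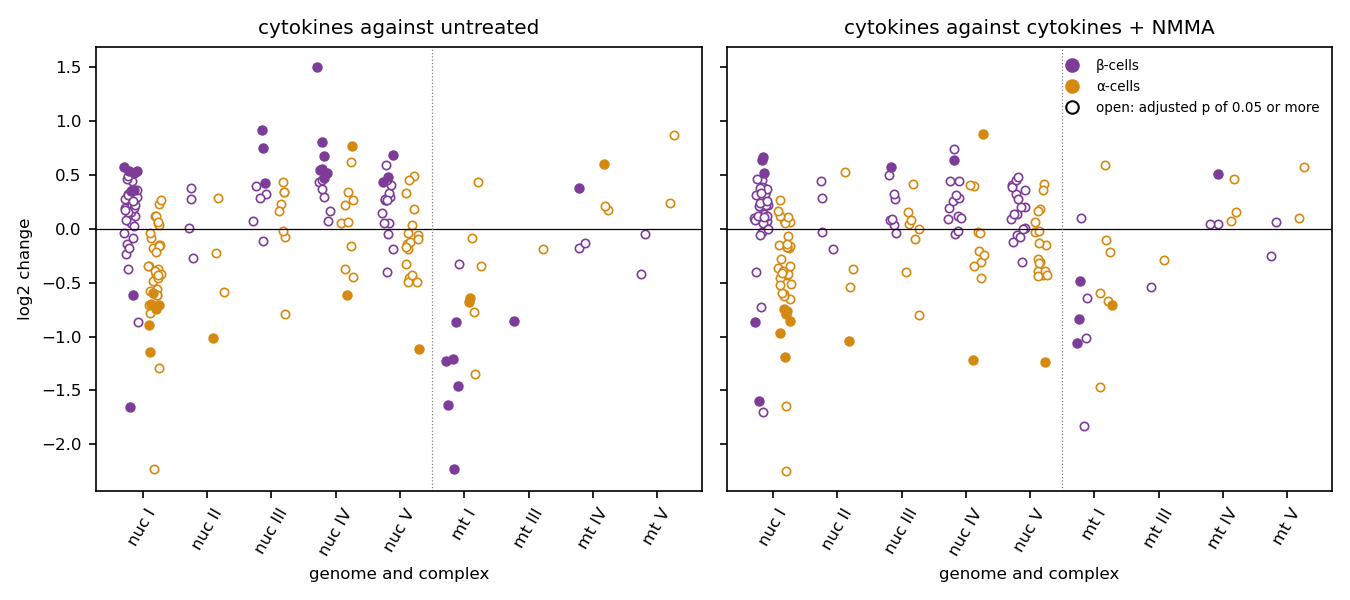
Log2 change of each member in β-cells (purple) and α-cells (orange), grouped along the x axis by genome (nuc, nuclear; mt, mitochondrial) and complex, for cytokines against untreated (left) and cytokines against cytokines with NMMA (right). Each point is a gene and filled points were called; in β-cells the 6 called mitochondrial complex I genes lie between -0.86 and -2.23 in the left panel, below nearly all nuclear genes.

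*Ndufa4* was the nuclear member that fell furthest among those called. It was first described as a subunit of complex I, by which its symbol places it here, and was later located in complex IV. In β-cells it was at 296 and 244 CPM untreated, 78.2 and 93.3 with cytokines, 282 and 238 with cytokines and NMMA, and 331 and 262 with NMMA. Both cytokine libraries lay below every other library, and the 3 other conditions overlapped. The log2 change was -1.65 (SE 0.18, adjusted p = 0.000174) against untreated and -1.60 (SE 0.18, adjusted p = 0.00225) against cytokines with NMMA, and the level with cytokines was 0.318 times that in untreated cells. Its paralog *Ndufa4l2*, a hypoxia-inducible gene, was at 0.0667 to 0.808 CPM in β-cell libraries and was not called (log2 change -0.87, SE 0.88, adjusted p = 0.449). *Ndufc2*, a membrane-arm subunit of complex I, was at 229 and 212 CPM untreated, 156 and 132 with cytokines, and 279.6 and 245 with cytokines and NMMA. Its log2 change was -0.61 (adjusted p = 0.00891) against untreated and -0.87 (adjusted p = 0.00706) against cytokines with NMMA, and the cytokine libraries lay below all others in both cases.

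The complex I genes that rose changed less. *Ndufa12*, an accessory subunit of the peripheral arm, was at 125 and 128 CPM untreated, 185 and 190.1 with cytokines, and 119 and 118 with cytokines and NMMA. The log2 change was 0.57 (SE 0.12, adjusted p = 0.00412). *Ndufb6*, a membrane-arm subunit, went from 81.3 and 74.4 CPM to 116 and 111 (log2 change 0.54, adjusted p = 0.0123). For both genes the cytokine libraries were the highest of the 8. The other complex I genes called higher were *Ndufa9*, *Ndufab1*, *Ndufb9* and *Ndufb10*, with log2 changes of 0.35 to 0.54, and none of the 4 complex II genes was called (log2 changes of -0.27 to 0.38).

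In complex III, 3 of 8 nuclear genes rose, beside 23.6% of all genes. *Uqcrb*, a subunit beside the ubiquinone site, was at 203 and 233 CPM untreated, 416 and 408 with cytokines, 283 and 269 with cytokines and NMMA, and 239 and 210.0 with NMMA. The cytokine libraries did not overlap any other, and the log2 change of 0.92 (SE 0.14, adjusted p = 0.000912) was the largest of the complex. *Uqcrq* rose from 304 and 399.9 CPM to 543 and 644 (log2 change 0.75, adjusted p = 0.00685), but was as high with cytokines and NMMA, at 549.5 and 569 CPM. The third gene was *Uqcrh* (log2 change 0.43).

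Complex IV, as assigned by symbol, had 7 of 13 nuclear genes called, all higher, beside 23.6% of all genes higher. *Ndufa4*, which fell, is counted under complex I by its symbol and is not among the 13. *Cox6a2*, the isoform of subunit 6a typical of heart and skeletal muscle, was at 9.08 and 11.4 CPM untreated, 34.3 and 23.2 with cytokines, 21 and 13.2 with cytokines and NMMA, and 12.9 and 11.5 with NMMA. Its log2 change was 1.5 (SE 0.26, adjusted p = 0.00186), and the cytokine libraries were again the highest 2. *Cox6a1*, the isoform found in most tissues, changed by 0.30 (SE 0.14, adjusted p = 0.105) and was not called. *Cox7b* rose from 186 and 219.7 CPM to 307 and 342 (log2 change 0.68, adjusted p = 0.0052) and stood at 298 and 300.1 with cytokines and NMMA. Among the other isoform families, *Cox4i1* (0.47, adjusted p = 0.0457) and *Cox7a2* (0.52, adjusted p = 0.0149) rose. *Cox7a2l*, which joins complexes III and IV in supercomplexes, changed by 0.17 (adjusted p = 0.469), *Cox6b1* by 0.45 (adjusted p = 0.0566) and *Cox8a* by 0.37 (adjusted p = 0.0503), and these were not called. *Cox7a1*, the muscle isoform, changed by 0.07 (SE 0.83) and was not called.

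In complex V, 3 of 18 nuclear genes rose, a share below the 23.6% of all genes. *Atp5c1*, the γ subunit that turns within the catalytic head, was at 176 and 173 CPM untreated and 297 and 264 with cytokines (log2 change 0.68, SE 0.15, adjusted p = 0.00509). *Atp5h*, a subunit of the peripheral stalk, went from 358 and 329 to 470.4 and 456 CPM (log2 change 0.43, adjusted p = 0.0332). Neither gene's cytokine libraries overlapped the rest. The 3 genes for the c subunit of the rotor were not called: *Atp5g1* changed by 0.33 (adjusted p = 0.0877), *Atp5g2* by 0.41 (adjusted p = 0.0501) and *Atp5g3* by -0.19 (adjusted p = 0.259).

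Promoters are shown for the 2 nuclear members that fell, *Ndufa4* and *Ndufc2*, and for *Atp5c1* and *Atp5h*, 2 that rose and were picked because they hold motifs long associated with respiratory genes. A promoter was listed for 69 of the 86 nuclear members (RefSeq, GRCm38.p6; 250 bases before to 50 after the start). The core of the NRF1 site, GCGCANGCG on either strand, was found in 20 of these 69 genes (29.0%) and in 7.03% of 27025 genes. The ETS motif CCGGAAGT was found in 5 (7.25%, against 4.31%) and the YY1 motif AAGATGGCG in 7 (10.1%, against 1.64%). Among members called in β-cells, 12 of the 19 that rose had a listed promoter and 3 of those held the NRF1 core, while *Ndufa4* and *Ndufc2*, which fell, matched none of the 3 motifs in this window. Matches are in capitals below.
Ndufa4, chr6:11907401-11907700, minus strand: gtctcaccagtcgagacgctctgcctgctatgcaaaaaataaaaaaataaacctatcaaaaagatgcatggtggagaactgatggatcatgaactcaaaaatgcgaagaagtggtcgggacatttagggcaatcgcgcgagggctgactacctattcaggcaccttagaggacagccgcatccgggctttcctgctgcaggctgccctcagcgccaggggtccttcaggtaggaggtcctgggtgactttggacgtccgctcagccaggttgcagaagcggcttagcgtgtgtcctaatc
Ndufc2, chr7:97399753-97400052, plus strand: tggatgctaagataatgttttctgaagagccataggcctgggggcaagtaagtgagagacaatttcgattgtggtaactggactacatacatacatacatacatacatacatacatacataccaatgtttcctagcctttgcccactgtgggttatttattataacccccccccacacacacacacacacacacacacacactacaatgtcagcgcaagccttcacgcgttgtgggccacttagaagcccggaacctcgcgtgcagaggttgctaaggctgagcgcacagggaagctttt
Atp5c1, chr2:10080383-10080682, minus strand: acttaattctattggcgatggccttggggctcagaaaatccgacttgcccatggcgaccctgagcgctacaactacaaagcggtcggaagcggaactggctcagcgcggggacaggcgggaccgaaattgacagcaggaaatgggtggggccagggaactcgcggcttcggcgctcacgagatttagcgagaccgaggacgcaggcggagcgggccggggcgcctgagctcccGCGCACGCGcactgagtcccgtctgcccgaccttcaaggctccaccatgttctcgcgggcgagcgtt
Atp5h, chr11:115419870-115420169, minus strand: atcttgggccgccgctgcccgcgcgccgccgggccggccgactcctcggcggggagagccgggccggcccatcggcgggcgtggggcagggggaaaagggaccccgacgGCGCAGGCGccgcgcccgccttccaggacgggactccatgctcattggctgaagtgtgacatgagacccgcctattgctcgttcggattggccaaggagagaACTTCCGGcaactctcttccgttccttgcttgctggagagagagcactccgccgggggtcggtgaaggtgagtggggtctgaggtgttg

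In mitochondrial DNA, the genes for complex I fell and those for complexes IV and V mostly did not. *mt-Nd1*, *mt-Nd2*, *mt-Nd3*, *mt-Nd4*, *mt-Nd4l* and *mt-Nd6* encode membrane-embedded subunits of complex I, and all 6 were lower with cytokines. *mt-Nd1* (chromosome M, bases 2751 to 3707 of GRCm38) was at 2095 and 1725 CPM untreated, 629.5 and 764 with cytokines, 1598 and 1299 with cytokines and NMMA, and 1698 and 1934 with NMMA, a log2 change of -1.46 (SE 0.17, adjusted p = 0.000256). *mt-Nd3* fell furthest, from 755 and 937 CPM to 102 and 259.9 (log2 change -2.23, SE 0.52, adjusted p = 0.0156). The cytokine libraries lay below every other library for both genes. *mt-Nd2* changed by -1.23 (adjusted p = 0.000499), *mt-Nd4* by -0.86 (adjusted p = 0.000697), *mt-Nd4l* by -1.64 (adjusted p = 0.0108) and *mt-Nd6*, the only member transcribed from the opposite strand, by -1.21 (adjusted p = 0.0119). *mt-Nd5* was not called, at 436 and 526 CPM untreated and 381 and 385 with cytokines (log2 change -0.33, adjusted p = 0.14).

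*mt-Cytb*, the only mitochondrially encoded subunit of complex III, fell from 4342 and 3757 CPM to 2321 and 2158 (log2 change -0.85, SE 0.17, adjusted p = 0.00382). By contrast *mt-Co1*, the catalytic subunit of complex IV, was at 8049 and 7448 CPM untreated, 10861 and 9242 with cytokines, 7605 and 6541 with cytokines and NMMA, and 7347 and 7549 with NMMA. That rise of 0.38 (SE 0.14, adjusted p = 0.0498) sat at the threshold, was called in 6 of 19 alternatives and was not called with total UMI scaling or without the heat shock-led clusters described below. *mt-Co2* (-0.18), *mt-Co3* (-0.13) and *mt-Atp6* (-0.05) were not called, and neither was *mt-Atp8* (-0.42, SE 1.08), whose replicates stood apart at 40.4 and 109 CPM in untreated cells. *mt-Atp8* shares 43 bases with *mt-Atp6* and *mt-Nd4l* shares 7 with *mt-Nd4* on the same strand, so reads in those bases cannot be assigned to 1 gene.

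The composition of mitochondrial mRNA needs no scaling between libraries. Complex I genes made up 17.7% and 19.6% of the UMIs of the 13 mitochondrial members in untreated β-cells, 8.47% and 11.2% with cytokines, 15% and 18.1% with cytokines and NMMA, and 18.6% and 20% with NMMA. Cytokine libraries were lowest, with no overlap. Complex IV genes made up 56.1% and 54.8% of these UMIs untreated and 66.5% and 64.7% with cytokines. *mt-Co1* alone made up 16.6% and 17.5%, then 25.8% and 25.2%. Shares of a fixed total rise when others fall. Of all β-cell UMIs, the mitochondrial genes of complex IV took 2.76% and 2.49% untreated and 2.50% and 2.14% with cytokines. The share of all β-cell UMIs from mitochondrial members was 4.92% and 4.54% untreated and 3.77% and 3.30% with cytokines, and that from nuclear members was 1.43% and 1.57% untreated and 1.58% and 1.65% with cytokines. There were thus 0.290 and 0.347 nuclear UMIs per mitochondrial UMI untreated, 0.419 and 0.5 with cytokines, 0.358 and 0.440 with cytokines and NMMA, and 0.369 and 0.337 with NMMA, so the ratio was higher with cytokines than with cytokines and NMMA within each replicate, although the conditions overlapped across replicates. The difference of -1.19 percentage points in the mitochondrial share shrank to -0.475 when cells were limited to 5% mitochondrial UMIs.

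**Figure D2:**
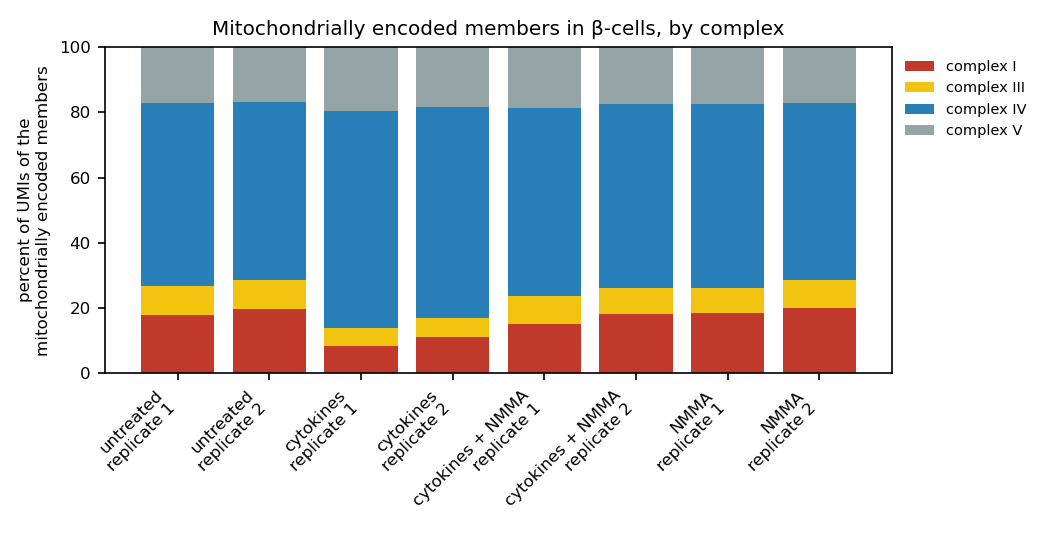
Share of the UMIs of the 13 mitochondrially encoded members (y axis, percent) that fell to complexes I, III, IV and V in β-cells, with 1 stacked bar for each of the 8 libraries. The complex I share is 8.47% and 11.2% in the cytokine libraries and 15% to 20% in the others.

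To compare the response with and without nitric oxide synthase inhibited, cytokines were set against cytokines with NMMA. In β-cells 5 nuclear members were higher and 2 lower, and 1 mitochondrial member was higher and 3 lower, against 9.17% of all genes higher and 10.4% lower. The 5 that were higher without the inhibitor were *Ndufa12* (log2 difference 0.66), *Ndufab1* (0.64), *Ndufb5* (0.52), *Uqcrb* (0.58, adjusted p = 0.0225) and *Cox7a2l* (0.64, adjusted p = 0.037), and *Ndufa4* and *Ndufc2* were lower. Among mitochondrial genes, *mt-Nd1* (-1.06, SE 0.17, adjusted p = 0.00616), *mt-Nd2* (-0.83, adjusted p = 0.0115) and *mt-Nd4* (-0.49, adjusted p = 0.0271) were lower and *mt-Co1* (0.51, adjusted p = 0.033) was higher. *Ndufab1*, the mitochondrial acyl carrier protein, stood at 229.6 and 199.9 CPM with cytokines and 144 and 132 with NMMA added. The replicate block raised the total from 11 to 46 with all 11 kept (20.5% of all genes higher and 20.2% lower in that fit), DESeq2 gave 17, and leaving out the cytokine library of replicate 1 or either library with cytokines and NMMA left 3.

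Cytokines with NMMA were then compared with untreated cells, the same control libraries as above. Only *Cox7b* (log2 change 0.56, adjusted p = 0.0234), *Cox5a* (0.56, adjusted p = 0.0378) and *Uqcrq* (0.67, adjusted p = 0.0217) were called, all higher (12.8% of all genes were higher and 9.76% lower), and no mitochondrial member was. *Cox5a*, a nuclear subunit of complex IV, was at 116 and 104 CPM untreated, 169 and 153 with cytokines, and 180.3 and 145 with cytokines and NMMA, so both cytokine-containing conditions lay above untreated. The block gave 23 members (22.1% of all genes higher and 18.8% lower), and without the untreated library of replicate 1 or the library of replicate 1 with cytokines and NMMA none was called. NMMA alone gave 0 called members of 0 called genes (0% of 12765) in edgeR, where 934 genes and 1 member had an unadjusted p under 0.05. DESeq2 called 10 genes and no member, and the block 3 members.

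Other genes of the pathway were read from lists of genes that build, regulate or connect the complexes. For cytokines against untreated their counts stand beside the 23.6% of all genes called higher and 22.3% lower. Of 13 carriers and channels, 6 rose in β-cells with cytokines and 1 fell: *Cycs*, the electron carrier cytochrome c, went from 75.9 and 75.9 CPM to 204 and 175 (log2 change 1.32, adjusted p = 0.000143), while *Ucp2*, the uncoupling protein, fell by 1.11. Among 9 nuclear regulators 5 rose, namely *Pprc1* (0.89), *Esrra* (0.95), *Gabpb1* (0.77), *Nrf1* (0.71) and *Yy1* (0.50), and none fell. Of 44 assembly factors tested 9 rose and 5 fell, neither share above that of all genes. *Ndufaf4* (0.87) and *Sco1* (1.04), which builds the copper centre of complex IV, were among the former, and *Nubpl* (-1.30), *Timmdc1* (-1.05) and *Ndufaf1* (-0.85), all complex I factors, among the latter. Of 16 genes for mitochondrial transcription, RNA and DNA, only *Lrpprc*, which stabilizes mitochondrial mRNA, was called, and it fell by 1.29 (adjusted p = 0.000767). *Tfam*, the packaging factor of mitochondrial DNA, was at 21.5 and 22.9 CPM untreated and 22.2 and 22.9 with cytokines. Against cytokines with NMMA, where 9.17% of all genes were higher and 10.4% lower, 5 of 44 assembly factors were higher and 3 lower, 2 carriers and 1 regulator were higher, and no gene for mitochondrial transcription was called.

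The response of *Ndufa4* differed between cell types. Its change with cytokines against untreated was lower in β-cells than in δ-cells by 1.71 on the log2 scale (interaction, adjusted p = 2.09e-07). In α-cells it was at 411 and 390.1 CPM untreated, 25.9 and 137 with cytokines, and 397 and 416 with cytokines and NMMA. The cytokine libraries lay below all others but differed from each other, and the log2 change of -2.23 (SE 0.67) was not called (adjusted p = 0.0804; 0.0966 with the replicate block). In δ-cells, where only replicate 2 had enough cytokine-treated cells, the gene was at 497 CPM with cytokines against 436 and 428 untreated. Macrophages ranged over 172 and 255 CPM untreated and 137 and 229 with cytokines, which overlapped. In endothelial cells the gene was at 457 and 541 CPM untreated, 245 and 317 with cytokines, and 326 and 358 with cytokines and NMMA, a log2 change of -0.82 (SE 0.24, adjusted p = 0.0404) for cytokines against untreated that DESeq2 did not call. NMMA alone left 496 and 533 CPM there, within or beside the untreated range. CPM were scaled within each cell type, and insulin took 42.3% and 40.2% of untreated β-cell UMIs but 0.522% and 0.462% in endothelial cells. The order that follows is one of shares of a type's UMIs and does not rank the cell types by amount of *Ndufa4* RNA. Ordered by untreated level, the endothelial cells were followed by δ-cells, α-cells, β-cells and macrophages. Endothelial cells and δ-cells did not overlap, δ-cells and α-cells did not either, and β-cells and macrophages did (244 against 255 CPM).

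**Figure D3:**
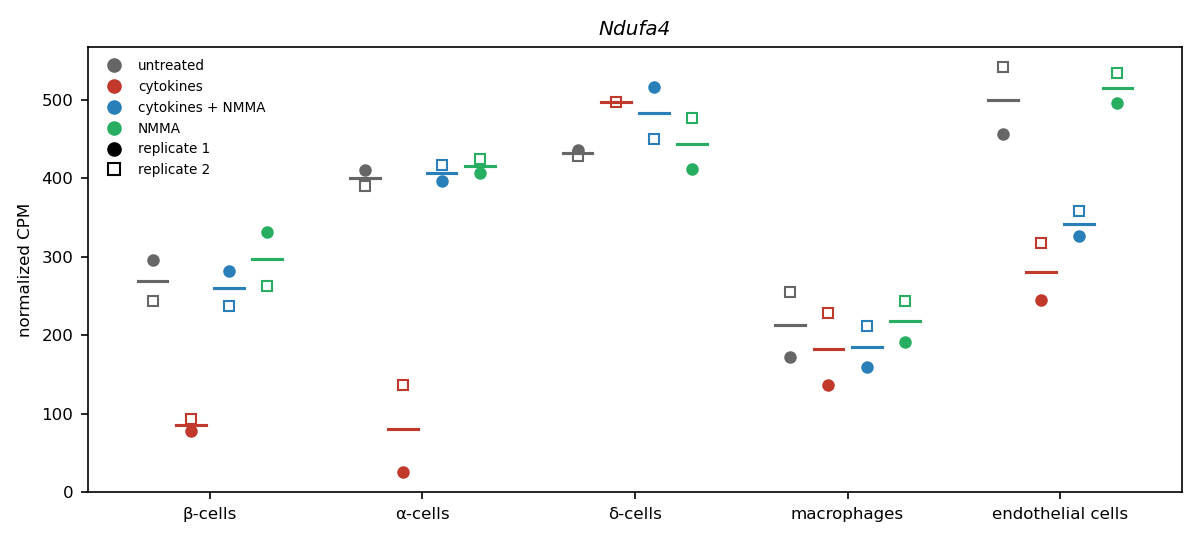
Normalized CPM of *Ndufa4* (y axis) in each library of the 5 cell types (x axis), with circles for replicate 1, squares for replicate 2, colours for the condition and bars for the mean of the 2 libraries. The cytokine libraries of β-cells (78.2 and 93.3 CPM) and α-cells (25.9 and 137) lie below all others of their type, and those of δ-cells and macrophages do not.

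Within β-cells the level of *Ndufa4* also differed between clusters and, inside clusters, between conditions. The clusters were formed from all genes and are therefore described without a test. In the clusters that held most untreated or NMMA-treated cells it was at 285 to 344 unscaled CPM (UMIs relative to all UMIs of the cells in question). A cluster with 730 cells of the replicate 1 cytokine library stood at 37.1, and one with 467 cells of the replicate 2 cytokine library at 88.8. Another 301 cells of the replicate 1 cytokine library stood at 155 and 34 at 192 in other clusters. By comparison, 63 cells of replicate 1 treated with cytokines and NMMA stood at 75.6 in the first of these clusters. Another cluster held 489 cells of that library at 326. In the cluster of the 467 cells, 380 cells of replicate 2 treated with cytokines and NMMA stood at 269. The clusters led by heat shock genes, which held 3.17% to 25.5% of the β-cells of a library in all 4 conditions, were low in every condition: 60.4 and 93.7 unscaled CPM untreated, 38.9 and 42.4 with cytokines, 89.9 and 61.3 with cytokines and NMMA, and 93.7 and 123 with NMMA. *mt-Nd1* was low there too, at 751 and 686 unscaled CPM in untreated cells of those clusters against 2099 to 2179 and 2025 in the other untreated clusters. *Cox6a2* stood at 17.8 unscaled CPM in the 730 cytokine-treated cells of replicate 1 and at 67.4 in the 301. Untreated clusters of replicate 1 with 1023 and 535 cells stood at 3.98 and 18.6. In replicate 2 it stood at 20.2 in the 467 cytokine-treated cells and 10.9 in a cluster with 468 untreated cells. *Hspa1a*, an inducible chaperone, ranged from 1201 to 3686 unscaled CPM in the heat shock-led clusters. It also stood at 1092 in the 63 cells with cytokines and NMMA, beside 259 in the 730 cytokine-treated cells of the same cluster. In the 489 cells with cytokines and NMMA it stood at 38.8. With the heat shock-led clusters left out, 23 nuclear members were higher and 2 lower and 7 mitochondrial members were lower, and *mt-Co1* was no longer called.

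**Figure D4:**
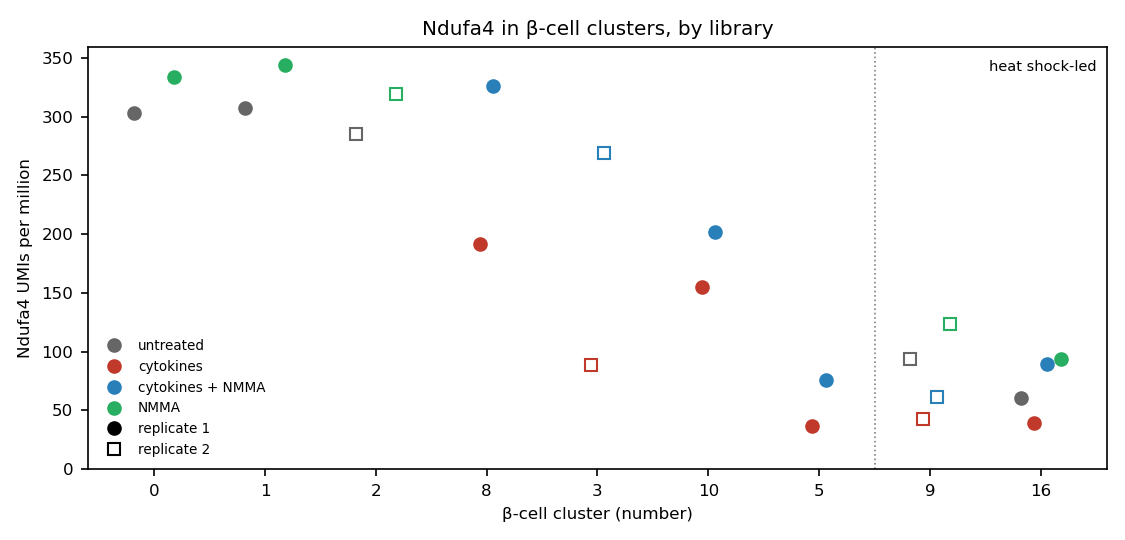
Unscaled CPM of *Ndufa4* (y axis) in each β-cell cluster (x axis, cluster number), with 1 point for each library with at least 10 cells there. The 2 heat shock-led clusters at the right lie between 38.9 and 123 in all 4 conditions, and untreated and NMMA-treated cells of the other clusters lie between 285 and 344.

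*AA467197* (the mouse form of NMES1), a paralog whose protein can take the place of NDUFA4 in complex IV, was looked up after the values of *Ndufa4* were seen. In macrophages it was at 506 and 288 CPM untreated, 1772 and 1336 with cytokines and 2008 and 1502 with cytokines and NMMA (log2 change 1.98 for cytokines against untreated, adjusted p = 0.000356). In the cells named endothelial it went from 13.8 and 4.97 to 544 and 427 CPM (log2 change 5.81, adjusted p = 6.07e-07). Of these cells, 3 of 28 and 4 of 34 untreated and 7 of 15 and 13 of 23 with cytokines held UMIs of mural genes, described below. The level of *AA467197* without such cells was not looked up. The 12 macrophage markers summed to 0 to 1876 CPM in endothelial libraries. In β-cells it had 15 and 8 UMIs untreated and 66 and 57 with cytokines, which was 0.126% and 0.270% of its cytokine level in macrophages. Macrophage markers stood in the same β-cells at 0.580% and 0.304% of their macrophage level, a larger share. Their share was also the larger in untreated libraries and with cytokines and NMMA. With NMMA alone it was the smaller, at 0.152% and 0.144% against 0.268% and 0.313% for *AA467197*. In edgeR the gene was called in β-cells for cytokines against untreated (log2 change 2.77, adjusted p = 0.000462). Whether its β-cell UMIs came from macrophages was not tested, and they are not read as expression.

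In α-cells, the glucagon-secreting cells, more nuclear members fell than rose with cytokines. Of 78 tested, 1 was higher and 9 (11.5%) lower, against 13.5% of all genes higher and 8.2% lower, and among 13 mitochondrial members *mt-Co1* was higher and *mt-Nd1* and *mt-Nd2* were lower. The share of α-cell UMIs from nuclear members was 2.31% and 2.41% untreated, 1.35% and 1.70% with cytokines, 2.20% and 2.34% with cytokines and NMMA, and 2.20% and 2.58% with NMMA, so the cytokine libraries lay below all others. *Atp5o*, which links the catalytic head of complex V to its stalk, was at 145 and 168 CPM untreated, 68.4 and 75.4 with cytokines, and 176 and 165 with cytokines and NMMA (log2 change -1.12, SE 0.21, adjusted p = 0.0011 against untreated). *Ndufb4*, a membrane-arm subunit, fell from 192 and 235 CPM to 81.3 and 109 (log2 change -1.15, adjusted p = 0.00248). *Sdhb*, the iron-sulfur subunit of complex II, went from 107 and 69.6 CPM to 37 and 48.1 (log2 change -1.01, adjusted p = 0.00988). For these 3 genes both cytokine libraries were the lowest of the 8.

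The one nuclear member that rose in α-cells was *Cox7a2l*, from 243 and 250.3 CPM to 373 and 467 (log2 change 0.77, adjusted p = 0.0169). *mt-Co1* rose from 5762 and 5409 to 9542 and 7458 CPM (0.61, adjusted p = 0.0318), *mt-Nd1* fell by 0.68 (adjusted p = 0.0213) and *mt-Nd2* fell by 0.65 (adjusted p = 0.0462). *mt-Nd3* differed between replicates, at 140.4 and 628 CPM with cytokines against 803 and 1176 untreated, and was not called. Against cytokines with NMMA, *Atp5o* (-1.24), *Cox5a* (-1.22) and *Ndufv3* (-1.19), a small subunit of the NADH-oxidizing module, led 9 lower nuclear members and *Cox7a2l* (0.88) was higher (4.5% of all genes were lower and 5.97% higher), and *mt-Nd1* (-0.71) was lower. Cytokines with NMMA against untreated gave *Cox5a* alone (0.77, adjusted p = 0.0322; of all genes 7.84% were called, 5.73% higher and 2.12% lower), a call lost in 10 of 17 alternatives, DESeq2 and total UMI scaling among them. NMMA alone gave 0 genes in edgeR and DESeq2, and no member had an unadjusted p under 0.05.

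Cytokine-treated α-cells lay mostly in a cluster led by heat shock genes, which held all 45 cells of replicate 1 and 55 of 68 of replicate 2, but 12 of 95 and 3 of 87 cells of the libraries with cytokines and NMMA, and 3 to 7 cells of each untreated or NMMA library. *Ndufa4* was at 18.7 and 63.8 unscaled CPM in those cells, and at 266 in the 13 cytokine-treated cells of replicate 2 that lay elsewhere. The part of this cluster in the α-cell results cannot be told apart from that of the cytokines. The replicate block gave 33 members in place of 13 for cytokines against untreated (28.8% of all genes), and 25 in place of 11 against cytokines with NMMA (18.7%). Scaling by total UMIs moved the median of all genes to -0.51 and gave 46 nuclear members lower and none higher, and 4 mitochondrial members lower, for cytokines against untreated. The nuclear median was then 0.19 below that of all genes, beside 0.17 below in the main fit. The count of 46 is therefore not read as a larger fall of these members relative to all genes. Left-out libraries gave 3 to 20 members, with the lowest count without the untreated library of replicate 1.

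**Figure D5:**
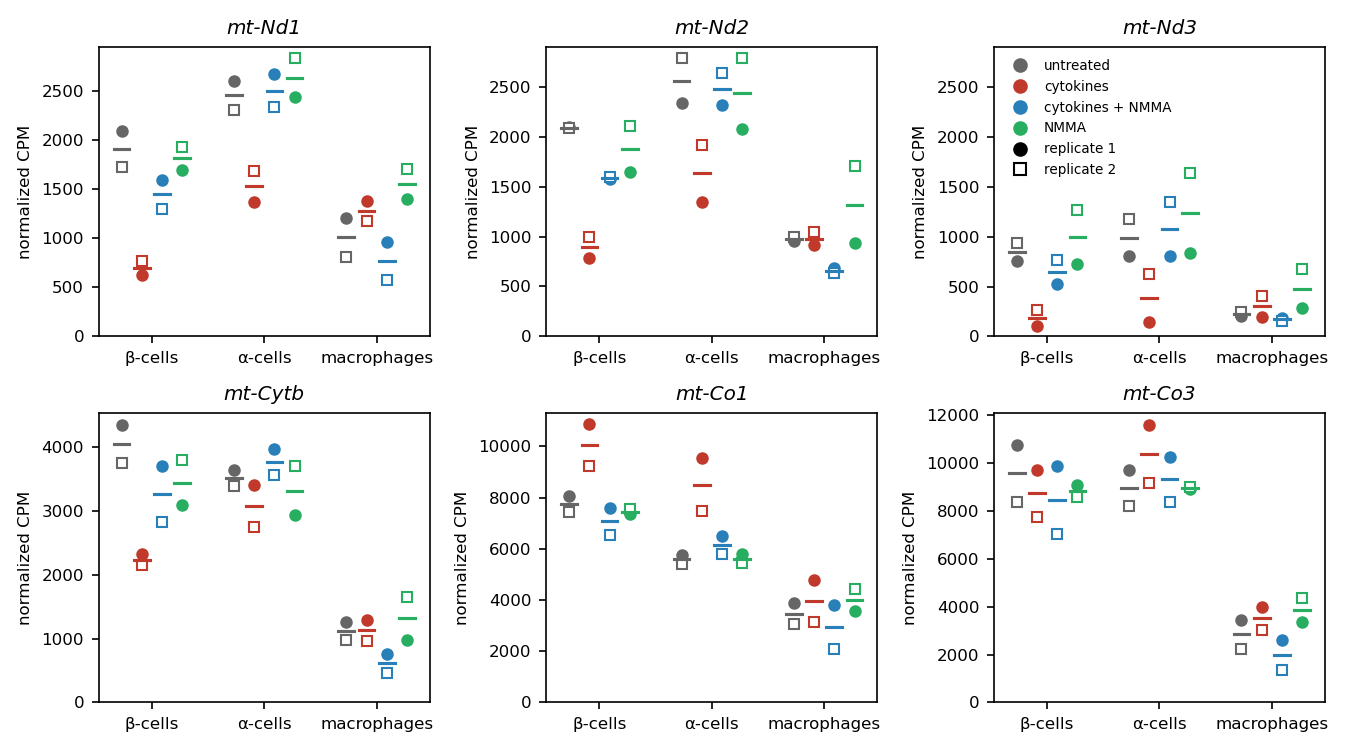
Normalized CPM (y axes) of 6 mitochondrially encoded members in each library of β-cells, α-cells and macrophages (x axes), with circles for replicate 1, squares for replicate 2, colours for the condition and bars for the mean of the 2 libraries. *mt-Nd1* with cytokines is at 629.5 and 764 in β-cells and 1371 and 1688 in α-cells, below the other conditions, and at 1376 and 1179 in macrophages.

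The response of β-cells was tested against that of the other cell types with an interaction of cell type and condition, with the library as a block. For cytokines against untreated, 22 nuclear members responded differently in β-cells and α-cells, all with the larger value in β-cells, and 6 mitochondrial members did so, all with the lower value in β-cells, against 3.96% of all genes. For cytokines against cytokines with NMMA there were 18, all nuclear and larger in β-cells (2.19% of all genes). *Atp5o* differed by 1.16 (SE 0.22, adjusted p = 0.000285) and 1.20 (SE 0.22, adjusted p = 0.000264) in these comparisons. Against macrophages 1 nuclear and 7 mitochondrial members differed (4.54% of all genes), and 1 and 9 in the comparison with NMMA (0.828%). In the latter the median log2 change of mitochondrial members was -0.49 in β-cells and 0.81 in macrophages, so the difference was not one of β-cells alone. Mitochondrial members took 2.15% and 1.62% of macrophage UMIs with cytokines and 1.42% and 0.857% with cytokines and NMMA. Against endothelial cells there were 2 nuclear and 7 mitochondrial (5.24%), then 2 and 4 (1.25%). Every mitochondrial member called against these 2 cell types was lower in β-cells, while δ-cells, with a single cytokine library, differed in 3 and 4 nuclear members (3.04% and 2.32%). Without the library block the 8 counts fell to between 0 and 4.

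In δ-cells, the somatostatin-secreting cells, 12 cytokine-treated cells of replicate 2 were compared, because replicate 1 had 9, under the minimum of 10, and its library was dropped from the fit. The spread therefore came from the other groups, and the lone library is assumed to vary like them. In simulated counts of this size, made without differences between pools, 11% of 2-fold changes were recovered. No nuclear member of 79 was called for cytokines against untreated (6 had an unadjusted p under 0.05, and DESeq2 called none), but 6 of 13 mitochondrial members were lower, against 4.42% of all genes higher and 2.23% lower. *mt-Cytb* was at 1319.7 CPM with cytokines, 4297 and 4402 untreated, and 4018 and 3121 with cytokines and NMMA (log2 change -1.72, SE 0.32, adjusted p = 0.00117). *mt-Nd4l* (-2.07, adjusted p = 0.00508), *mt-Nd2* (-1.22, adjusted p = 0.0163), *mt-Co3* (-1.21), *mt-Nd1* (-1.08) and *mt-Atp6* (-1.08) were the others, whereas *mt-Co1* stood at 7802 CPM against 7127 and 7311. Against cytokines with NMMA *mt-Cytb* alone was called (-1.44, adjusted p = 0.0104; of all genes 2.77% were called, 1.59% higher and 1.18% lower), and the block gave 9. Cytokines with NMMA raised *Cox5a* (0.77, adjusted p = 0.0161) and *Ndufs8* (0.87, adjusted p = 0.0185), a subunit with iron-sulfur clusters, above untreated (of all genes 9.4% were called, 6.34% higher and 3.06% lower, and 12 members called with the block). Each call was lost in 5 of 16 alternatives, and DESeq2 called no member. NMMA alone gave 0 genes called in edgeR and DESeq2, and 1 member had an unadjusted p under 0.05.

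In macrophages no member was called in any of the 4 comparisons, in which edgeR called 4.78%, 0.118%, 6.44% and 0% of 5106 genes, with 3.9% and 5.15% higher for cytokines and for cytokines with NMMA against untreated. For cytokines against untreated 3 members had an unadjusted p under 0.05, and DESeq2 called none. In the other comparisons the numbers were 9 for cytokines against cytokines with NMMA, 10 for cytokines with NMMA against untreated and 4 for NMMA against untreated, and DESeq2 called none. The replicate block called 2, 1, 2 and 0. *mt-Nd1* was at 1207 and 809.6 CPM untreated and 1376 and 1179 with cytokines, and *mt-Nd3* at 204 and 248 and at 193 and 408. Insulin, which macrophages do not make, took 1.68% and 3.98% of their UMIs untreated and 0.190% and 0.618% with cytokines. One macrophage cluster held 23 cells of each cytokine library and 0 and 1 untreated cells, and untreated macrophages lay in another.

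In the cells named endothelial, *Cox4i2* and *Ndufa4l2* were higher and *Ndufa4* lower with cytokines, against 8.64% of all genes called, 5.98% higher and 2.66% lower. *Cox4i2*, a subunit isoform of complex IV linked to oxygen sensing, had 0 and 1 UMIs untreated, 14 and 27 with cytokines, 14 and 22 with cytokines and NMMA, and 1 and 1 with NMMA (adjusted p = 0.000135 for cytokines against untreated). *Ndufa4l2* was at 27.7 and 96.8 CPM untreated, 485 and 345 with cytokines, and 576 and 504 with cytokines and NMMA (log2 change 2.60, SE 0.42, adjusted p = 0.0019). Both were also called for cytokines with NMMA against untreated (6.6% of all genes higher), and edgeR and DESeq2 called no gene with NMMA alone (1 nuclear and 1 mitochondrial member had an unadjusted p under 0.05) or between the cytokine-containing conditions (1 member). Genes of mural cells, which wrap small vessels, moved with these: *Pdgfrb* had 0 and 2 UMIs untreated and 37 and 40 with cytokines, *Acta2* 0 and 0 and 26 and 19, and cells with a UMI of *Pdgfrb*, *Acta2*, *Rgs5* or *Notch3* numbered 3 of 28 and 4 of 34 untreated and 7 of 15 and 13 of 23 with cytokines. In the libraries with cytokines, every *Cox4i2* UMI lay in such cells. An unnamed cluster led by *Rgs5*, *Pdgfrb* and *Acta2* held 13 to 19 cells of each untreated or NMMA library and none of the others. Its untreated cells, which were not counted as endothelial, held 24 and 48 UMIs of *Cox4i2* and 163 and 225 of *Ndufa4l2*. The rises of *Cox4i2* and *Ndufa4l2* cannot be told apart from the change in which cells were named endothelial. Of the 10 genes of the mesenchymal list, which includes *Pdgfrb*, *Rgs5* and *Acta2*, *Col1a1* and *Pdgfra* were at 0 UMIs in the endothelial class and the other 8 had 3 (*Col1a2*) to 4218 (*Sparc*) UMIs.

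Without the cells that held a mural UMI, *Ndufa4* was no longer called in endothelial cells for cytokines against untreated (log2 change -0.69). Both replicate 1 libraries with cytokines then held under 10 cells, 8 and 6, and were dropped from that fit. Its level in the remaining cells was 525 and 565 unscaled CPM untreated, 273 and 286 with cytokines, 344 and 345 with cytokines and NMMA, and 592 and 560.0 with NMMA. The libraries with cytokines stayed below the others without overlap. *Ndufa4l2* had 6 and 37 UMIs untreated and 9 and 0 with cytokines in these cells. It was the 1 member called, now lower, but the call rests on a single cytokine library at 0 UMIs, and the dropped library had 9. At a clustering resolution of 0.5 or with a mitochondrial limit of 20%, no member was called for cytokines against untreated.

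*Nos2*, the gene for the inducible nitric oxide synthase, had a UMI in 59.6% and 54.1% of β-cells with cytokines and 76.4% and 65.4% with cytokines and NMMA, and in 0 or 1 β-cell of each untreated or NMMA library. A cell without a UMI may still express the gene. Cells with and without a *Nos2* UMI were compared within the 4 cytokine-containing libraries. Only cells with at least 10000 UMIs entered, and the *Nos2* count alone was thinned to 10000 UMIs to split them. The counts compared were not thinned, and median UMIs were higher in cells with *Nos2* in all 4 libraries. They were 25333 against 24598 in replicate 1 with cytokines and 33325 against 23855 in replicate 2 with cytokines and NMMA. Of 93 members tested only *Ndufb8*, a membrane-arm subunit of complex I, was called (log2 difference -0.22, SE 0.07, adjusted p = 0.0458), against 5.6% of all genes higher and 3.5% lower. *Ndufa4* differed by -0.13 (adjusted p = 0.504) and *mt-Nd1* by 0.08 (adjusted p = 0.604), and 14 members had an unadjusted p under 0.05. The difference was fitted over all 4 libraries together, and neither gene was called with cytokines and NMMA against untreated. It therefore cannot show whether the falls with cytokines alone differed between cells with and without *Nos2*. In the cytokine libraries, mitochondrial members took 3.88% of UMIs in cells with and 3.63% in cells without a *Nos2* UMI in replicate 1, and 3.45% and 3.13% in replicate 2. With cytokines and NMMA the values were 4.51% and 4.31%, and 3.79% and 3.45%. The share was higher in cells with *Nos2* in all 4 libraries, a difference that was not tested, and the nuclear share was 1.56% to 1.66% in all 8 sets of cells.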

How the data were processed

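The deposited files held UMI counts per gene and cell barcode for 8 libraries of dispersed islets, which the authors made with Cell Ranger on mm10 (GRCm38) per the labels. The chemistry is given as v2 in the labels and v3 in the methods. Barcodes with over 200 genes, under 5500 (replicate 1) or 6500 (replicate 2) genes and under 10% mitochondrial UMIs were kept, and cells were clustered (leidenalg 0.10.2, resolution 1) and named from marker lists. The 200 barcodes marked as possible doublets stayed in, and their removal was an alternative. Only gene IDs listed for both replicates were used. Counts were summed per cell type and library with at least 10 cells and tested with edgeR 4.0.16 (quasi-likelihood, TMM, Benjamini-Hochberg over all genes tested) in R 4.3.3, with DESeq2 1.42.0, other scalings, filters, limits and left-out libraries as alternatives. On simulated counts with 200 changed genes, the share of 2-fold changes recovered was 84% in β-cells, 47.4% in macrophages, 42.4% in α-cells, 35.8% in endothelial cells and 11% in δ-cells. False calls made up 4.23% (β-cells) to 8.45% (α-cells) of the calls. The counts were drawn with the spread of the fit with the replicate block and without differences between pools. The main fits hold such differences, so their recovery may be lower.

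Samples of the same replicate came from 1 pool of islets, and their deviations from group means correlated at 0.612 to 0.702 in β-cells and at 0.257 or more in the other types. The replicate number therefore pairs the samples, but the main fits held the condition alone and the block was an alternative. The members and lists were chosen with earlier results of these data known. The genes named are the mitochondrial members, for each complex the 2 nuclear members with the smallest p in each direction in β-cells with cytokines against untreated (1 against cytokines with NMMA), paralogs, up to 3 members for each difference between cell types and for the split by *Nos2*, and up to 3 members called in each direction in other cell types. Other members are named where a small count was listed. The mural genes, the clusters and *AA467197* were chosen after values were seen. Fits without insulin genes, heat shock-led clusters or cells with a mural UMI were also added after seeing the data.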

Additional observations from a re-analysis of the deposited data

Results flagged for a closer look

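The response of β-cells to cytokines differed from that of another cell type for several members (interaction of cell type and condition in edgeR, library as a block, adjusted over all genes). Between β-cells and α-cells it differed for 28 members for cytokines against untreated and for 18 for cytokines against cytokines with NMMA. With δ-cells the numbers were 3 and 4, with macrophages 8 and 10, and with endothelial cells 9 and 6. Over all genes 3.96% and 2.19%, 3.04% and 2.32%, 4.54% and 0.828%, and 5.24% and 1.25% differed, so the δ-cell counts of 95 members were close to that share. Without the library block each count fell to between 0 and 4. The values below are the log2 change in β-cells minus that in the other type.

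Against α-cells, *mt-Atp8* (-1.39, adjusted p = 0.00023), *Atp5o* (1.16) and *mt-Nd4l* (-1.31, adjusted p = 0.000807) led for cytokines against untreated. *Atp5o* (1.20), *Cox5a* (1.25, adjusted p = 0.000441) and *Ndufc1* (0.996, adjusted p = 0.00232) led for cytokines against cytokines with NMMA. Against δ-cells, where 1 library of cytokine-treated cells was used, these were *Ndufa4* (-1.71), *Uqcrb* (0.91, adjusted p = 0.0337) and *Ndufa6* (0.95, adjusted p = 0.0479), then *Ndufa4* (-1.44, adjusted p = 3.88e-05), *Ndufa12* (1.09, adjusted p = 0.0201) and *Ndufa6* (1.02, adjusted p = 0.0333).

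Against macrophages they were *mt-Nd3* (-2.84, adjusted p = 2.31e-20), *mt-Nd1* (-1.98, adjusted p = 9.09e-13) and *mt-Nd2* (-1.40, adjusted p = 2.37e-06), then *mt-Nd3* (-2.72), *mt-Nd1* (-1.86) and *mt-Nd4* (-1.72, adjusted p = 1.24e-08). Against endothelial cells they were *mt-Nd3* (-2.31), *mt-Nd1* (-1.81) and *mt-Nd2* (-1.35), then *mt-Nd1* (-1.18), *mt-Nd3* (-1.30) and *Ndufa4* (-1.35, adjusted p = 0.000506).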

How the results depend on the processing

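With the replicate block, which pairs the samples, the members called for cytokines against untreated, cytokines against cytokines with NMMA, cytokines with NMMA against untreated and NMMA against untreated numbered 65, 46, 23 and 3 in β-cells, where the block called 62.9%, 40.6%, 40.9% and 3.47% of all genes. The first 3 numbered 33, 25 and 1 in α-cells, 11, 9 and 12 in δ-cells and 2, 1 and 2 in macrophages, beside 28.8%, 18.7% and 13.1%, 8.69%, 5.15% and 16.3%, and 9.17%, 1.18% and 12.5% of all genes. Scaling by total UMIs without mitochondrial genes gave 19 in β-cells for cytokines against untreated. In α-cells total scaling with and without them gave 50 and 50, 34 and 36, and 0 and 0 for the first 3 comparisons, and for cytokines with NMMA against untreated it gave 5 and 5 in δ-cells and 1 and 1 in macrophages. DESeq2 gave 17 and 6 in β-cells for the comparisons of cytokines with NMMA against cytokines and against untreated, and 0 for the latter in α-cells and δ-cells. Without a filter on low counts there were 6 for the latter in β-cells, 20 and 17 in α-cells for the first 2, 6 and 6 in δ-cells and 5 and 2 in macrophages for the comparisons that include cytokines with NMMA. A mitochondrial limit of 5% gave 2 in δ-cells for the first, and 0 in δ-cells and α-cells for cytokines with NMMA against untreated, and a limit of 20% gave 2 in δ-cells for the second. In endothelial cells the limit of 20% gave 0 and 0, resolution 0.5 gave 0 and 0, and leaving out cells with a mural UMI gave 1 and 0 for the first comparison and for cytokines with NMMA against untreated, where *Ndufa4l2* turned to a fitted -6.96 against a library at 0 UMIs.

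Leaving out 1 library gave 11 to 28, 3 to 11, 0 to 4 and 0 to 0 members in β-cells, 3 to 20, 3 to 16, 0 to 1 and 0 to 0 in α-cells, 2 to 6, 1 to 1, 0 to 3 and 0 to 0 in δ-cells, 0 to 0, 0 to 0, 0 to 1 and 0 to 0 in macrophages and 2 to 3, 0 to 0, 2 to 2 and 0 to 0 in endothelial cells. Without the library block the interactions of β-cells gave 1 and 0 members with α-cells, 1 and 0 with δ-cells, 4 and 2 with macrophages and 4 and 0 with endothelial cells. The split by *Nos2* gave 0 without the block and 3 when all cells were split on all their UMIs. The mitochondrial share differed between cytokines and untreated by -0.475 percentage points in β-cells at 5%, by -0.833 in α-cells at 20%, by -2.43 at 20% and -1.28 at 5% in δ-cells, and by 1.28 in macrophages and -0.511 in endothelial cells at resolution 0.5. In β-cells 8 of the 29 members called for cytokines against untreated were called under all 19 alternatives (*Atp5c1*, *Ndufa4*, *Cox6a2*, *Uqcrb*, *mt-Nd1*, *mt-Nd2*, *mt-Nd4* and *mt-Cytb*), and none turned. The cause of these changes was not tested.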

Other observations

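*Ndufb1-ps*, whose symbol marks a pseudogene, was listed for replicate 2 alone and entered no comparison. It had 7104, 7821, 9707 and 7168 UMIs in the untreated, cytokine, cytokine with NMMA and NMMA libraries.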
